A study of Mus musculus with 5 samples.

Results

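The genes described here are 51 mouse genes that encode heat shock and endoplasmic reticulum (ER) chaperones, their cofactors and their regulators, out of 49246 genes with a value in all 5 files. They were taken from a fixed list of gene symbols. The rule itself uses no measured value, but the list was chosen with earlier results of these data known. The list holds 27 genes of the cytosol, the mitochondrion and the TRiC chaperonin, called heat shock members below, and 24 genes of the ER. RNA was measured in 5 libraries of bone marrow-derived macrophages from wild type C57BL/6 mice, differentiated for 6 days in medium with either CSF1 or L929 cell supernatant. In 3 libraries (replicates 3, 4 and 5) the cells had received 30 µM CBR-5884, which inhibits PHGDH, the first enzyme of serine synthesis, and then 10 ng/ml interleukin 4 (IL-4) for 24 h. In 2 libraries (replicates 3 and 5) they had received solvent in place of CBR-5884 and the same IL-4, so that both groups carry the IL-4 treatment, and cells without it were not analysed here. The labels name neither the solvent nor which cultures had CSF1 or L929 supernatant, and whether each replicate is a separate animal or culture is not stated. The p-values therefore reflect variation among these libraries, some of which may be technical.

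Chaperones bind unfolded stretches of proteins and keep them from clumping while they fold. In the cytosol, heat and other protein-damaging stress releases the transcription factor HSF1, which binds heat shock elements and raises transcription of Hsp70, Hsp90 and their cofactors. In the ER, where secreted and membrane proteins fold, misfolding is sensed by IRE1 (gene Ern1), ATF6 and PERK (gene Eif2ak3). Activated IRE1 cuts a short stretch out of the Xbp1 mRNA, and cleaved ATF6 and the spliced form of XBP1 bind ER stress elements in front of chaperone genes. Macrophages that answer IL-4 secrete chemokines, lectins and enzymes, which fold in the ER.

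A RefSeq promoter (build GRCm38.p6, 250 bases before to 50 bases after the transcript start) was at hand for 41 of the 51 genes, and the elements named above were searched in it on both strands. The ER stress element, CCAAT followed by CCACG with 9 bases of any kind between them, lay in the promoters of 8 of 20 ER members (40%), of 0 of 21 heat shock members and of 0.148% of the 8133 tested genes with a promoter. The heat shock element, searched as GAA, TTC and GAA with 2 bases of any kind in each gap, lay in those of 4 of 21 heat shock members (19.0%), of 0 of 20 ER members and of 0.602% of tested genes. The tested genes include the members. Of them 12 carried the ER stress element, the 8 ER members among them. The heat shock element was in 49 tested genes, among them the 4 heat shock members. The short core CCACG, which is part of the full ER stress element, was in 17 of 20 ER members (85%) and in 12 of 21 heat shock members (57.1%), against 53.0% of tested genes. The full element was thus rare in promoters of other genes, and its core was common. Both elements are known from chaperone genes, as described above, so finding them in members is not an independent result. The stretches that carry the full ER stress elements are printed 5′ to 3′ on the strand of the gene. Capitals mark the fixed letters of the element, which read CGTGG and ATTGG where the match is on the other strand. Hspa5 and Hsp90b1 encode BiP and GRP94, Calr and Canx the lectin chaperones calreticulin and calnexin, Pdia6 a disulfide isomerase, Dnajc3 a J protein, Creld2 an ER stress-induced ER protein and Syvn1 the ubiquitin ligase HRD1.
Hspa5, chr2:34772017-34772051, plus strand: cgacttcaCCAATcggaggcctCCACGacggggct
Calr, chr8:84847067-84847101, minus strand: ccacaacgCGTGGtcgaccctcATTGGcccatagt
Canx, chr11:50325792-50325826, minus strand: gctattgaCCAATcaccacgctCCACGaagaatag
Creld2, chr15:88819512-88819546, plus strand: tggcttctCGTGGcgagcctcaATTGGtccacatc
Pdia6, chr12:17266483-17266517, plus strand: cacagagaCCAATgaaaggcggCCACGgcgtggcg
Dnajc3, chr14:118937819-118937853, plus strand: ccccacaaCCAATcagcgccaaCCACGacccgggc
Syvn1, chr19:6046524-6046558, plus strand: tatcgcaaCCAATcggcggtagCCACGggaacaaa
Hsp90b1, chr10:86705525-86705664, minus strand: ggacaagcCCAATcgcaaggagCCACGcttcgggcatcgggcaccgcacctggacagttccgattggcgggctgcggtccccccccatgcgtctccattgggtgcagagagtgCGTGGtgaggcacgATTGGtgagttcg
Hsp90b1 carries 2 such elements, in opposite directions, from 212 to 194 and from 107 to 89 bases before its RefSeq start, whereas the others carry 1 each. In Hspa5 the element lay 65 to 47 bases before the start.

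Among heat shock members, the heat shock element was found in Chordc1, Hspe1, Hspd1 and Hsph1, which encode an Hsp90 cofactor, the mitochondrial chaperonin pair Hsp10 and Hsp60, and an Hsp110 protein. Hspe1 and Hspd1 are neighbours that are transcribed away from each other, and the same bases between their RefSeq starts carry the element for both. In the stretches below, capitals mark the fixed letters of overlapping matches on either strand.
Chordc1, chr9:18292255-18292293, plus strand: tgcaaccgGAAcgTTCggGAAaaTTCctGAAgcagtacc
Hspe1, chr1:55088051-55088084, plus strand: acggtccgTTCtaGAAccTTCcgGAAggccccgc
These matches describe letters in a window and do not show binding, and a window without a match says nothing about the factor.

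The files imply 30200000 to 30700000 fragments per CBR-5884 library and 28300000 to 28900000 per solvent library. Of 9 macrophage markers, all were at 1 FPKM or more in every library, with summed levels of 9903 to 13276 FPKM with CBR-5884 and 11226 to 13295 FPKM with solvent. The erythroid markers Hbb-bs and Alas2 were listed at 0 in all 5 libraries, as were the T and NK cell markers Cd3e, Cd3d and Ncr1, and the 5 dendritic cell markers summed to 0.811 to 1.18 FPKM with CBR-5884 and 1.30 to 1.94 FPKM with solvent. The 4 fibroblast markers summed to 4.96 to 8.12 FPKM with CBR-5884, against 8.93 to 9.59 FPKM with solvent, and the 6 neutrophil markers to 10.3 to 12.7 FPKM with CBR-5884, against 9.38 to 19.6 FPKM with solvent. The part of these other cells in the results below was not tested. In bulk RNA, fewer cells of a type and less RNA per cell cannot be told apart.

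The comparison of CBR-5884 with solvent asks whether blocking PHGDH changes the transcripts of macrophages that respond to IL-4. No heat shock or ER chaperone gene passed the test. Across members of both classes the differences were small and mostly towards lower levels with CBR-5884, with medians of -0.081 on the log2 scale for heat shock members and -0.11 for ER members, against -0.031 for all genes tested. The widest differences were those of Sdf2l1 (-0.49), an ER cofactor of J proteins, and Creld2 (-0.36) on the lower side, and of Chordc1 (0.23) and Dnajb4 (0.20) on the higher side. The genes at the top of the abundance scale, Calr, Hsp90ab1, Hspa5 and Hsp90b1, were all at a lower mean with CBR-5884 when the transcripts of each gene were summed.

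Gene levels are FPKM (fragments per kilobase, relative to the depth of the library), summed over the transcripts of a gene. A log2 fold change is taken after adding 1 to each FPKM, so that differences of genes with low levels come out too small, and its standard error (SE) is that of limma. The test was limma with Benjamini-Hochberg adjustment over the 10770 genes with a mean of at least 1 FPKM, and the call rule was an adjusted p under 0.05. Genes that met it made up 0.223% of those tested, 0.0464% higher and 0.176% lower with CBR-5884. Of the 27 heat shock members 25 passed the filter and 0 were called, the smallest limma adjusted p being 0.169 (Hsp90ab1). All 24 ER members passed the filter and 0 were called, the smallest limma adjusted p being 0.165 (Ern1). So few genes were called in all that a count of 0 among 49 is near the background.

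At an unadjusted p under 0.05 (limma), 7.24% of all genes were higher with CBR-5884 and 12.4% lower. By that measure 0 heat shock members were higher and 5 lower (20%), namely Hspa8, Hsp90ab1, Tcp1, Cct3 and Cct5. Among ER members 1 was higher (4.17%), Atf6, and 3 were lower (12.5%), Ern1, Sdf2l1 and Creld2. The ER shares are near the background. The balance over all genes depended on how libraries were scaled. Higher genes were 36.9% of those under that p as deposited, 55.2% after quantile normalization, 53.5% on the TPM scale and 49.4% with median-ratio scaling. Under these 3 scalings the heat shock members had 2 higher each and 1, 1 and 3 lower, so their count did not hold against scaling. Over all genes the 3 scalings gave 1163 higher and 945 lower of 10770, 1170 and 1017 of 11797, and 1034 and 1060 of 10772.

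Counting groups that do not overlap, in which each CBR-5884 library lies on one side of both solvent libraries, gave 16.6% of all genes higher and 24.9% lower. Of the heat shock members 3 were higher (12%) and 11 lower (44%), and of the ER members 3 were higher (12.5%) and 8 lower (33.3%). A negative fold change was found in 21 of 25 heat shock members (84%) and 18 of 24 ER members (75%), against 55.7% of all genes tested. The counts of signs moved with scaling, and overlap was counted on unscaled FPKM only. After quantile normalization, with median-ratio scaling and on the TPM scale, 17, 18 and 19 heat shock members were negative and 8, 7 and 7 positive. Of the ER members, 17, 17 and 16 were then negative and 7, 7 and 8 positive. The medians of all genes were 0.013, -0.0030 and 0.0077 in these settings. The medians of the members stayed negative under the 3 scalings, at -0.033 to -0.049 for heat shock members and -0.060 to -0.079 for ER members. The differences stayed within 0.2 in either direction for 21 of the 25 heat shock members and 17 of the 24 ER members, which is 84% and 70.8%, against 65.3% of all genes. That comparison was not matched for level. Tested members had a median level of 52.8 FPKM (heat shock) and 75.1 FPKM (ER), whereas all genes tested reach down to a mean of 1 FPKM.

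**Figure D1:**
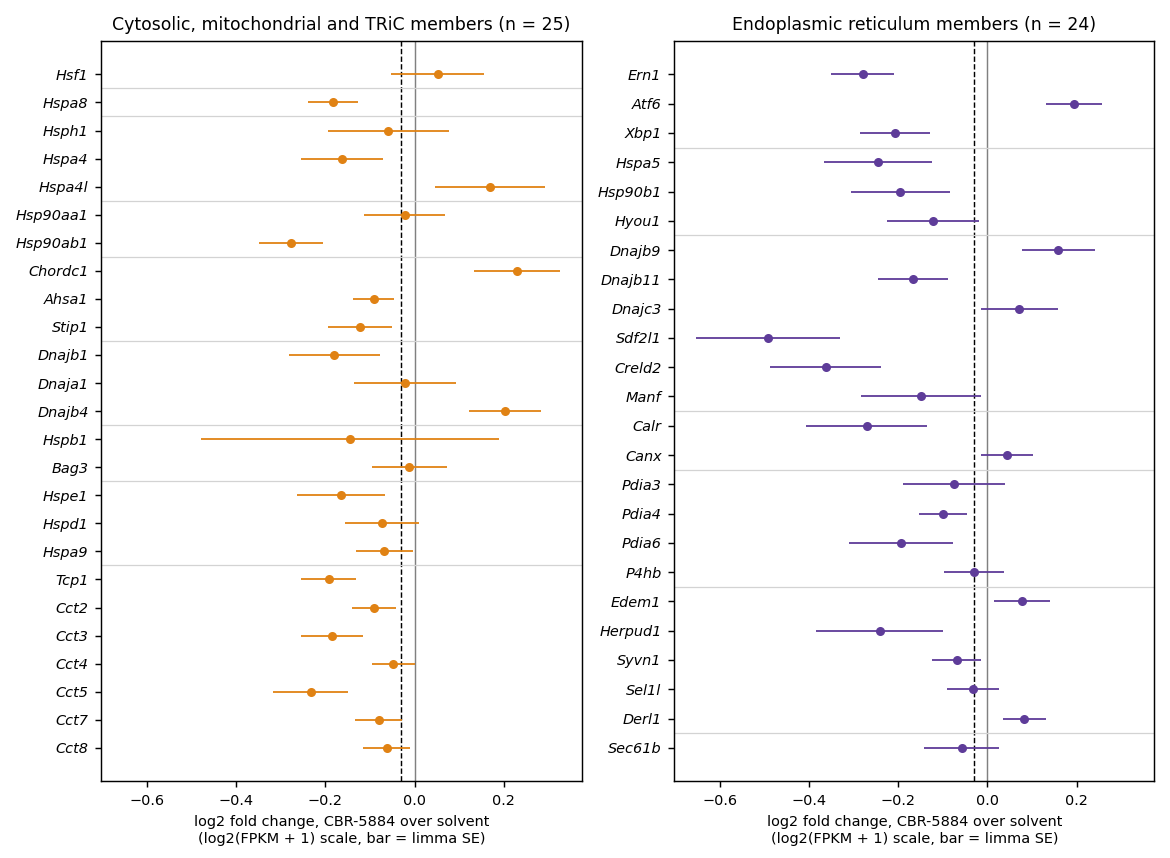
Log2 fold change of each tested member, CBR-5884 over solvent, on the log2(FPKM + 1) scale; points are estimates, bars 1 SE of limma, rows are grouped by role and the dashed line is the median of all genes tested (-0.031). Most points lie left of 0 in both panels, with Sdf2l1 at -0.49 and Chordc1 at 0.23 at the ends.

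**Figure D2:**
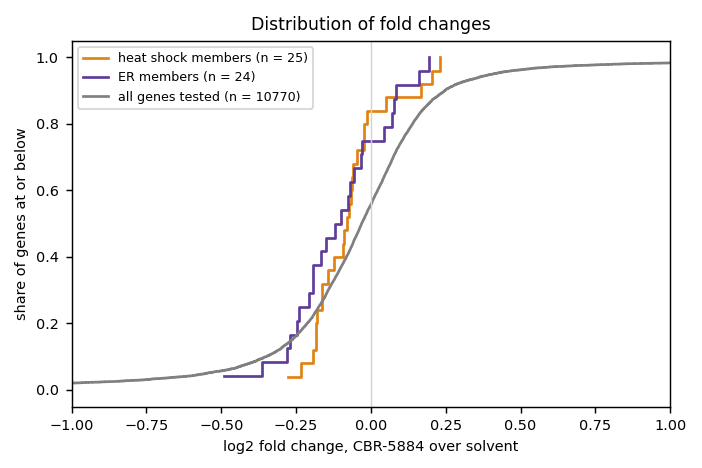
Cumulative share of genes at or below each log2 fold change (CBR-5884 over solvent), for 25 heat shock members, 24 ER members and all 10770 genes tested, with the axis ending at 1 on either side. The curves of the members stay within -0.49 and 0.23 and lie left of the curve of all genes around 0, where that curve has long tails on both sides.

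Hsf1, the master regulator of the heat shock response, was at 13.9, 13.5 and 11.3 FPKM in CBR-5884 replicates 3, 4 and 5, against 12.9 and 11.9 FPKM in solvent replicates 3 and 5 (log2 fold change 0.051 with an SE of 0.10, limma adjusted p = 0.809). The groups overlap, and over reference transcripts alone the value turned to -0.36. Hspa1a and Hspa1b encode the stress-inducible Hsp70 and serve as the classical readout of HSF1. Hspa1a was at 0.384, 0.279 and 0.496 FPKM with CBR-5884, against 0.240 and 0.424 FPKM with solvent. Hspa1b was at 0.438, 0.382 and 0.662 FPKM with CBR-5884, against 0.607 and 0.848 FPKM with solvent. Both were under 1 FPKM in every library, overlapped between groups and were below the filter of the test. Their coding sequences are 99.5% identical (10 differences over 1926 and 1929 nt), so the split of fragments between them is uncertain.

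The constitutive chaperones stood far above the inducible ones. Hspa8, the constitutive cytosolic Hsp70 (chromosome 9, 40800984 to 40810087, plus strand, GRCm38), was at 248, 269.6 and 248 FPKM with CBR-5884, against 293 and 286 FPKM with solvent. All 3 CBR-5884 libraries were below both solvent libraries, with a log2 fold change of -0.18 (SE of 0.056, limma adjusted p = 0.202). Hsp90ab1, the constitutive cytosolic Hsp90 (chromosome 17, 45567775 to 45573271, minus strand), was at 347, 397 and 370.5 FPKM with CBR-5884, against 459 and 440.4 FPKM with solvent. These groups do not overlap either, and the log2 fold change was -0.28 (SE of 0.071, limma adjusted p = 0.169). Its stress-inducible relative Hsp90aa1 was at 41.0, 47.8 and 45.3 FPKM with CBR-5884, against 42.9 and 47.9 FPKM with solvent, and there the groups overlap.

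The value of Hsp90ab1 rests on how its transcripts were assembled. Cufflinks gave it no assembled transcript in the 3 CBR-5884 libraries, whereas assembled transcripts held 71.2% and 59.7% of its FPKM in solvent replicates 3 and 5. Counted over reference transcripts alone it was at 347, 397 and 370.5 FPKM with CBR-5884, against 132 and 178 FPKM with solvent, and the log2 fold change became 1.27 (limma adjusted p = 0.114). The direction of Hsp90ab1 therefore depends on whether assembled transcripts are counted. Assembled transcripts held some FPKM in 14 of the 51 genes. They held 80.1% to 100% of Hspd1 in the CBR-5884 libraries and 90.2% to 90.7% in the solvent libraries. In Cct5 they held 58.2%, 55.7% and 0% in CBR-5884 replicates 3, 4 and 5, against 73.6% and 0% in solvent replicates 3 and 5.

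**Figure D3:**
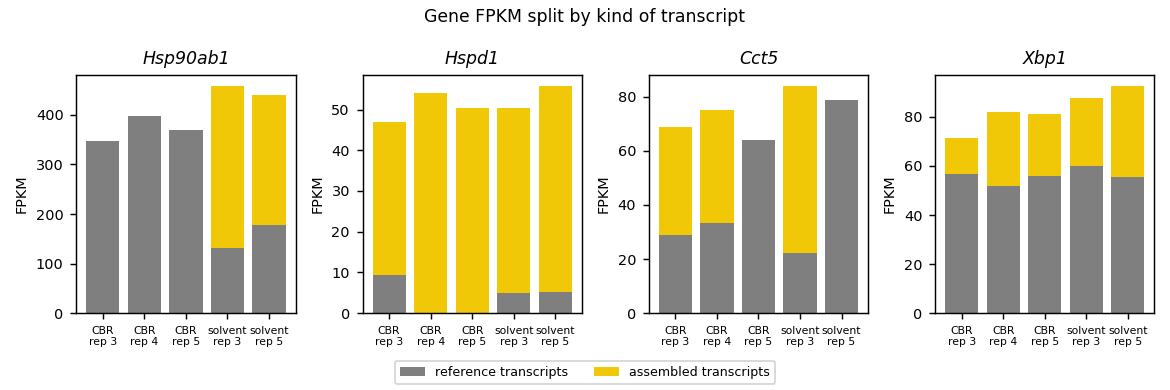
FPKM of Hsp90ab1, Hspd1, Cct5 and Xbp1 in each library, with grey for reference transcripts and yellow for transcripts assembled by Cufflinks. Hsp90ab1 has assembled transcripts in the solvent libraries alone (71.2% and 59.7% of its FPKM), while its full bars are 347, 397 and 370.5 FPKM with CBR-5884 and 459 and 440.4 FPKM with solvent.

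Hsp110 proteins exchange the nucleotide of Hsp70. Hspa4l was at 11.1, 8.82 and 8.498 FPKM with CBR-5884, against 8.40 and 8.11 FPKM with solvent (log2 fold change 0.17 with an SE of 0.12, limma adjusted p = 0.495), and replicate 3 alone stood off from the other CBR-5884 libraries. Hspa4, the most abundant of the 3, was at 49.3, 53.2 and 48.4 FPKM with CBR-5884, against 61.2 and 51.9 FPKM with solvent, with overlap (log2 fold change -0.16, and 0.099 over reference transcripts alone). Hsph1 was at 25.03 to 33.7 FPKM with CBR-5884 and 29.5 to 31.6 FPKM with solvent.

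Cofactors of Hsp90 went different ways. Chordc1, which binds Hsp90 and is a known HSF1 target, was at 11.9, 11.9 and 11.3 FPKM with CBR-5884, against 8.87 and 10.9 FPKM with solvent. The 3 CBR-5884 libraries were above both solvent libraries, with a log2 fold change of 0.23 (SE of 0.096, limma adjusted p = 0.288). Ahsa1, which stimulates the ATPase of Hsp90, was at 74.5, 70.9 and 73.1 FPKM with CBR-5884, against 78.9 and 76.5 FPKM with solvent, without overlap and with a log2 fold change of -0.092 that turned to 0.29 over reference transcripts alone. Stip1, the Hop protein that joins Hsp70 to Hsp90, was at 28.5 to 32.4 FPKM with CBR-5884, below the 32.9 and 34.1 FPKM with solvent.

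J proteins hand clients to Hsp70. Dnajb4 was at 9.57, 11.1 and 9.76 FPKM with CBR-5884, above the 8.84 and 8.504 FPKM with solvent (log2 fold change 0.20 with an SE of 0.080, limma adjusted p = 0.273). Dnaja1 was at 23.4, 26.1 and 24.2 FPKM with CBR-5884, against 22.2 and 27.9 FPKM with solvent. Dnajb1, a classical HSF1 target, was at 8.10, 8.43 and 9.68 FPKM with CBR-5884, against 10.7 and 9.33 FPKM with solvent. Groups overlapped for Dnaja1 and for Dnajb1.

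Hspb1 encodes the small heat shock protein Hsp27. It lay close to the filter, at 1.02, 1.89 and 0.490 FPKM with CBR-5884, against 1.58 and 1.00 FPKM with solvent, and its SE of 0.33 was the widest of the tested heat shock members. Bag3, a cofactor of Hsp70 in selective autophagy, was at 30.9, 36.7 and 33.3 FPKM with CBR-5884, against 34.4 and 33.3 FPKM with solvent. Neither gene separated the groups.

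In the mitochondrion, Hspe1 (Hsp10) was at 69.9, 84.8 and 81.4 FPKM with CBR-5884, against 90.1 and 85.9 FPKM with solvent (log2 fold change -0.16 with an SE of 0.098, limma adjusted p = 0.422). All 3 CBR-5884 libraries were below both solvent libraries, and replicate 4 lay closest to them. Its partner Hspd1 (Hsp60) was at 47.0 to 54.0 FPKM with CBR-5884 and 50.4 to 55.8 FPKM with solvent. Hspa9, the mitochondrial Hsp70 mortalin, was at 63.2 to 69.1 FPKM with CBR-5884 and 66.3 to 70.6 FPKM with solvent. The last 2 overlapped between groups.

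The TRiC chaperonin folds actin, tubulin and other cytosolic proteins in a double ring of related subunits, of which 7 are members here. All 7 had a negative fold change, from -0.23 to -0.048, except that Cct4 turned to 0.0034 after quantile normalization, and Cct4 and Cct8 to 0.036 and 0.024 over the most abundant reference transcript. In 6 of the 7, all CBR-5884 libraries were below both solvent libraries (85.7%, against 24.9% of all genes). This was counted on unscaled FPKM only. Some gaps were narrow: CBR-5884 replicate 4 and solvent replicate 5 were at 77.2 and 77.5 FPKM for Cct8, and at 56.6 and 57.2 FPKM for Cct7. Over reference transcripts alone Cct5 overlapped, at 28.8, 33.2 and 63.8 FPKM with CBR-5884, against 22.2 and 78.8 FPKM with solvent. Cct6a, a subunit that is not a member, was at 45.3 to 52.9 FPKM with CBR-5884 and 48.8 to 51.0 FPKM with solvent, with overlap and a log2 fold change of -0.037 (limma adjusted p = 0.822). Subunits of 1 complex are not independent of each other. Tcp1 was at 57.7, 63.6 and 63.5 FPKM with CBR-5884, against 70.8 and 70.1 FPKM with solvent (log2 fold change -0.19 with an SE of 0.062, limma adjusted p = 0.215). Cct3 was at 51.8, 58.8 and 54.3 FPKM with CBR-5884, against 61.2 and 63.9 FPKM with solvent (log2 fold change -0.18 with an SE of 0.069, limma adjusted p = 0.253). Cct5 was at 68.8, 75.0 and 63.8 FPKM with CBR-5884, against 84.0 and 78.8 FPKM with solvent (log2 fold change -0.23 with an SE of 0.084, limma adjusted p = 0.248). In all 3 genes solvent libraries were the highest, and none of the 3 was called. Cct2, the most abundant subunit, was at 78.1, 83.0 and 78.7 FPKM with CBR-5884, against 84.1 and 86.3 FPKM with solvent (log2 fold change -0.091). Cct7 and Cct8 also did not overlap, with log2 fold changes of -0.081 and -0.063, whereas Cct4 overlapped.

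**Figure D4:**
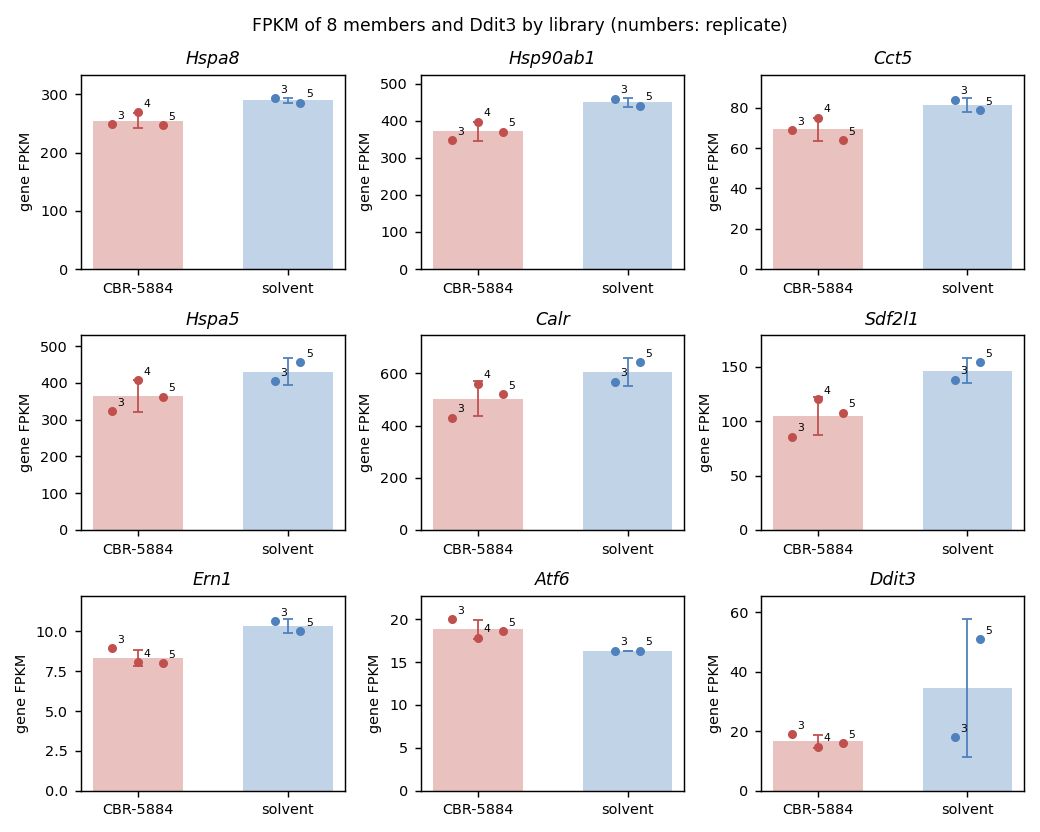
FPKM of 8 members and of Ddit3 in each library; bars are means, error bars the SD (3 CBR-5884 and 2 solvent libraries) and the number at each point is the replicate. In Hspa8, Hsp90ab1, Cct5, Calr, Sdf2l1 and Ern1 all CBR-5884 points lie below both solvent points, in Atf6 they lie above, and the wide solvent bar of Ddit3 comes from replicate 5 at 50.8 FPKM.

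The ER sensors differed in direction from each other. Ern1, which encodes the sensor kinase and ribonuclease IRE1 (chromosome 11, 106394650 to 106487852, minus strand), was at 8.95, 8.06 and 8.02 FPKM with CBR-5884, against 10.6 and 10.0 FPKM with solvent. All CBR-5884 libraries were below both solvent libraries, with a log2 fold change of -0.28 (SE of 0.070, limma adjusted p = 0.165). In solvent replicate 3 alone, assembled transcripts held 15.6% of the FPKM of Ern1. Over reference transcripts that library was at 8.98 FPKM, barely above the 8.95 FPKM of CBR-5884 replicate 3. The smallest limma adjusted p of any ER member was then 0.323. Atf6, the sensor that is cleaved in the Golgi to release a transcription factor (chromosome 1, 170704674 to 170867771, minus strand), was at 20.0, 17.8 and 18.6 FPKM with CBR-5884, against 16.3 and 16.3 FPKM with solvent. There all CBR-5884 libraries were above both solvent libraries, with a log2 fold change of 0.19 (SE of 0.064, limma adjusted p = 0.220). Neither sensor passed the adjusted threshold.

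Xbp1, whose mRNA is the substrate of IRE1 (chromosome 11, 5520659 to 5525893, plus strand), was at 71.5, 81.9 and 81.05 FPKM with CBR-5884, against 87.8 and 92.6 FPKM with solvent. The groups do not overlap, and the log2 fold change was -0.21 (SE of 0.079, limma adjusted p = 0.261). IRE1 removes 26 bases from exon 4, which lie between paired CNGCNG motifs and are shown in capitals in the GENCODE M21 transcript, since the active form of the factor is read from the frame that their removal opens.
Xbp1, chr11:5524279-5524304, plus strand: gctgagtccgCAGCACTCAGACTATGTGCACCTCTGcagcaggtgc
Without the 26 bases the open frame of the transcript is 1113 nt long, against 801 nt with them. Every Xbp1 transcript in the 5 files, reference or assembled, keeps all 26 bases, so the files give no level of the spliced form and IRE1 activity was not measured here. They do separate a form assembled in each library that starts at base 5521663, in place of 5520659. It held 20.5%, 36.8% and 31.1% of the gene's FPKM in CBR-5884 replicates 3, 4 and 5, against 31.6% and 40.1% in solvent replicates 3 and 5, with overlap between groups. The full-length reference transcript was at 56.8, 51.8 and 55.9 FPKM with CBR-5884, against 60.0 and 55.5 FPKM with solvent, and the authors' 95% interval for the first of these values is 53.6 to 60.0 FPKM.

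BiP and GRP94 are the Hsp70 and the Hsp90 of the ER lumen and the textbook readout of ER stress. Hspa5 (BiP, chromosome 2, 34771970 to 34777547, plus strand) was at 322, 408 and 362 FPKM with CBR-5884, against 405 and 456 FPKM with solvent. Hsp90b1 (GRP94) was at 322, 400.4 and 361 FPKM with CBR-5884, against 391 and 434 FPKM with solvent. In both genes CBR-5884 replicate 4 was above solvent replicate 3, so the groups overlap. Their log2 fold changes were -0.25 (SE 0.12, limma adjusted p = 0.346) for Hspa5 and -0.20 (SE 0.11, limma adjusted p = 0.401) for Hsp90b1. Hyou1, the large Hsp70 relative GRP170, was at 38.2 to 47.6 FPKM with CBR-5884 and 45.8 to 47.1 FPKM with solvent. The exons of Hsp90b1 overlap those of 1810014B01Rik on the other strand by 415 nt.

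Sdf2l1 encodes a partner of the ER J proteins. It was at 85.8, 120.0 and 108 FPKM with CBR-5884, against 138 and 154 FPKM with solvent. This was the widest fold change of all members (-0.49, SE 0.16, limma adjusted p = 0.220), and the groups do not overlap. Creld2 was at 27.6, 34.96 and 30.6 FPKM with CBR-5884, against 37.3 and 42.9 FPKM with solvent (log2 fold change -0.36 with an SE of 0.12, limma adjusted p = 0.230), also without overlap. In both genes CBR-5884 replicate 3 was the lowest library and solvent replicate 5 the highest. Dnajb11, a BiP cofactor, was at 59.9 to 69.6 FPKM with CBR-5884, below the 70.2 and 73.8 FPKM with solvent. Manf, a secreted ER stress protein, was at 71.1 to 89.1 FPKM with CBR-5884 and 81.8 to 98.6 FPKM with solvent, with overlap. Dnajb9 (ERdj4), a J protein that holds back IRE1 and is a target of XBP1, was at 24.1, 27.1 and 24.0 FPKM with CBR-5884, above the 21.3 and 23.4 FPKM with solvent (log2 fold change 0.16). Dnajc3 was at 31.1 to 35.4 FPKM with CBR-5884 and 29.4 to 32.8 FPKM with solvent.

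Lectin chaperones hold glycoproteins by their sugar chains. Calr, the most abundant of all members, was at 429, 560.0 and 521 FPKM with CBR-5884, against 568 and 642 FPKM with solvent. All CBR-5884 libraries were below both solvent libraries, but replicate 4 was close to solvent replicate 3 (log2 fold change -0.27 with an SE of 0.14, limma adjusted p = 0.355). Canx, its membrane-bound relative, was at 179 to 193 FPKM with CBR-5884 and 173 to 185 FPKM with solvent (log2 fold change 0.044). The 4 disulfide isomerases among the members all had a negative fold change, except that P4hb turned to 0.00094 with median-ratio scaling and 0.013 on the TPM scale. Pdia3, the most abundant of them, was at 234, 285 and 263 FPKM with CBR-5884, against 254 and 296 FPKM with solvent. Pdia6 was at 94.9, 118 and 108 FPKM with CBR-5884, against 114 and 130.2 FPKM with solvent (log2 fold change -0.19 with an SE of 0.12, limma adjusted p = 0.422). Groups overlapped in both. Pdia4 was at 138 to 144.5 FPKM with CBR-5884, just below the 145.2 and 156.8 FPKM with solvent, and P4hb at 171 to 192 FPKM with CBR-5884 and 180.3 to 185 FPKM with solvent.

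Misfolded ER proteins are passed back to the cytosol for degradation. Herpud1, an ER stress-induced scaffold for it, was at 16.2, 21.01 and 20.7 FPKM with CBR-5884, against 21.2 and 24.6 FPKM with solvent (log2 fold change -0.24 with an SE of 0.14, limma adjusted p = 0.416). Edem1, which extracts misfolded glycoproteins, was at 48.8, 49.8 and 49.2 FPKM with CBR-5884, against 44.1 and 49.4 FPKM with solvent. Derl1 was at 43.3 to 45.8 FPKM with CBR-5884, above the 41.5 and 42.7 FPKM with solvent, with a log2 fold change of 0.082. Syvn1 and Sel1l, the ligase HRD1 and its adaptor, had log2 fold changes of -0.068 and -0.032 with overlap, and the sign of Sel1l turned to 0.021 after quantile normalization and 0.012 on the TPM scale. Sec61b, a subunit of the channel through which proteins enter the ER, was at 105, 121 and 119 FPKM with CBR-5884, against 115 and 125 FPKM with solvent.

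Members spanned a wide range of levels, from Hspa1a at a mean of 0.365 FPKM upwards, and from Hspb1 at 1.20 FPKM among those tested. Calr had a mean of 544 FPKM over the 5 libraries, Hsp90ab1 403 FPKM, Hspa5 391 FPKM and Hsp90b1 382 FPKM, and 8 members were among the 500 most abundant genes. Summed over all 27 heat shock members, the level was 1550, 1715 and 1607 FPKM with CBR-5884, against 1816 and 1798 FPKM with solvent. Summed over the 24 ER members it was 2617, 3130 and 2901 FPKM with CBR-5884, against 3062 and 3385 FPKM with solvent. The heat shock sums do not overlap between groups, and the ER sums do. Over reference transcripts alone the heat shock sums were 1435, 1593 and 1529 FPKM with CBR-5884, against 1328 and 1466 FPKM with solvent. They then overlap, with the higher mean in the CBR-5884 libraries, so the direction of the sum over all 27 depends on whether assembled transcripts are counted. Those of Hsp90ab1 alone held 327 and 263 FPKM in solvent replicates 3 and 5, against 0 in each CBR-5884 library. Without Hsp90ab1, a choice made after seeing the data, the sums over all transcripts of the other 26 were 1203, 1318 and 1236 FPKM with CBR-5884, below 1358 FPKM in each solvent library.

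Levels of the ER members also differed between libraries of the same group. Measured from the solvent mean on the log2 scale, their median was -0.21, -0.026 and -0.10 in CBR-5884 replicates 3, 4 and 5, against -0.064 and 0.064 in solvent replicates 3 and 5. CBR-5884 replicate 3 was the lowest of the 5 libraries in 15 of 24 ER members (62.5%) and 14 of 25 heat shock members (56%), against 28.7% of all genes tested. Solvent replicate 5 was the highest in 15 of 24 ER members (62.5%) and 8 of 25 heat shock members (32%), against 26.3% of all genes. Solvent replicate 3 was the highest in 10 of 25 heat shock members (40%), against 23.1% of all genes. The median of the ER members was -0.067 without CBR-5884 replicate 3 and -0.046 without solvent replicate 5, against -0.11 with all libraries. For heat shock members it was -0.050 without CBR-5884 replicate 3 and -0.074 without solvent replicate 5, against -0.081 with all. The ER members with an ER stress element had a median log2 fold change of -0.19 (8 genes, 6 negative) and those without it -0.087 (12 genes, 10 negative). CBR-5884 replicate 3 was the lowest library in 5 of the 8 with the element and in 8 of the 12 without it. Solvent replicate 5 was the highest in 6 of the 8 and in 8 of the 12. Replicate 3 was below replicate 5 in both groups in 8 of the 8 and in 8 of the 12.

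**Figure D5:**
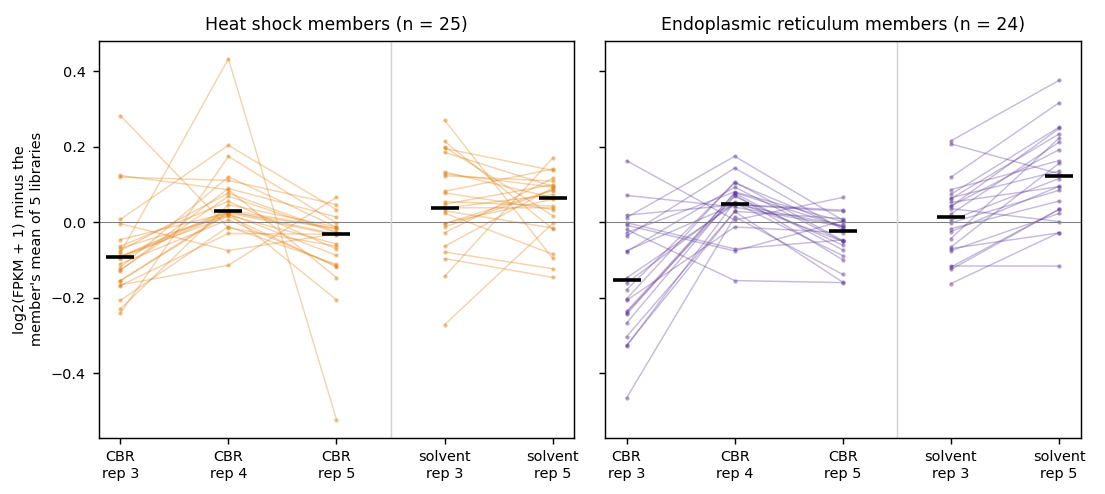
Level of each tested member in each library, as log2(FPKM + 1) minus its mean over the 5 libraries; thin lines join the libraries of 1 group for each gene, black bars are medians. In the ER panel the lowest median is that of CBR-5884 replicate 3 and the highest that of solvent replicate 5, which were the extreme libraries in 62.5% of ER members each.

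Genes of the same pathways that are not members were taken from 4 further lists, and 0 of their tested genes were called by limma. Of 32 tested cytosolic folding genes, 2 were higher and 4 lower at an unadjusted p under 0.05 (limma), against 7.24% and 12.4% of all genes. Vbp1, a prefoldin subunit that feeds TRiC, was at 20.8, 20.7 and 20.0 FPKM with CBR-5884, against 17.4 and 17.1 FPKM with solvent (log2 fold change 0.24 with an SE of 0.045, limma adjusted p = 0.132). Fkbp5, an Hsp90 cofactor and glucocorticoid target, was at 4.10, 4.34 and 4.04 FPKM with CBR-5884, against 5.50 and 6.39 FPKM with solvent (log2 fold change -0.43 with an SE of 0.084, limma adjusted p = 0.132). Of 11 tested mitochondrial folding genes and proteases, 0 were higher and 3 lower, namely Trap1, Lonp1 and Clpp. Of 53 tested genes of ER folding, translocation and degradation, 7 were higher (13.2%) and 5 lower (9.43%). Ero1l, the oxidase that recharges disulfide isomerases, was at 14.9, 14.3 and 13.6 FPKM with CBR-5884, against 11.8 and 11.8 FPKM with solvent (log2 fold change 0.25 with an SE of 0.057, limma adjusted p = 0.149). Cnpy3, an ER cofactor for the folding of Toll-like receptors, was at 49.2, 51.3 and 47.5 FPKM with CBR-5884, against 60.5 and 58.1 FPKM with solvent (log2 fold change -0.26 with an SE of 0.054, limma adjusted p = 0.136). None of the 4 overlapped between groups, and none was called.

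The PERK branch slows translation under ER stress and acts through ATF4. Of 8 tested genes of this list, 1 was higher (Mbtps2, a protease that cleaves ATF6) and 2 were lower (Eif2ak3, the PERK kinase, and Atf6b) at an unadjusted p under 0.05 (limma). Atf4 was at 45.7, 48.3 and 46.0 FPKM with CBR-5884, against 46.7 and 47.5 FPKM with solvent (log2 fold change -0.012). Ddit3 encodes CHOP, the factor linked to cell death under lasting ER stress. It was at 19.0, 14.9 and 15.9 FPKM with CBR-5884, against 18.0 and 50.8 FPKM with solvent (log2 fold change -0.84 with an SE of 0.45, limma adjusted p = 0.380). Solvent replicate 5, the library with the highest level of most ER members, stood apart for this gene, while solvent replicate 3 lay within the range of the CBR-5884 libraries.

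Exons of 13 of the 51 genes overlap exons on the opposite strand, among them Tcp1 by 571 nt and the pair Hspe1 and Hspd1 by 112 nt. The kit was directional, but the strand setting of the authors' counting is not given in the sources used here, so reads of such partners may not have been told apart.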

How the data were processed

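Per the labels' protocols, total RNA was sequenced as single 75 bp reads from a directional library kit. The submitters' processing notes name Bowtie2, TopHat2, Cufflinks and the build mm10 (GRCm38). The sources used here give no tool version, annotation release or strand setting. The deposited files hold 1 library each and list the FPKM from the authors' Cufflinks run for Ensembl reference transcripts and for transcripts assembled from reads, with no normalization between libraries on record. Depth was read off the constant ratio of coverage to FPKM.

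GENCODE mouse M21 gave the gene of each reference transcript (70832 of 71220 matched in CBR-5884 replicate 3, with similar numbers in the others). Assembled transcripts of 200 nt or longer were added to the same-strand gene covering 50% or more of their exonic bases. What was left out made up 64.0% to 70.3% of summed FPKM per library, yet 8.55% to 10.2% of covered bases. Covered bases weigh a transcript by its length, and FPKM does not. The left-out FPKM was not split by transcript length. Gene FPKM is a sum over transcripts. A transcript in every library was present for 49246 genes. A further 95 genes had no transcript in at least 1 library and stayed out of that number and of the test.

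Genes with a mean of at least 1 FPKM were fitted with limma 3.58.1 in R 4.3.3 (lmFit and trended eBayes, two-sided tests of log2(FPKM + 1)), with group as the only term and all 5 libraries. P-values were Benjamini-Hochberg adjusted over the 10770 genes tested. Values in every library are given for the member with the widest fold change and the most abundant member of each role, for the main regulators and chaperones, for members with an unadjusted p below 0.05 and no overlap between groups, and for the 2 genes with the smallest p in each direction of the other lists. Further members are given by ranges or by all libraries. The members and the lists were chosen with earlier results of these data known. Other pseudocounts, filters, scalings, transcript choices, a robust fit, a replicate block and the removal of each library were tried. Protein sequences were not used here, so the planned comparison of C-terminal signals was not made. Motifs, promoter sequences and coding identity were read with Python 3.11.15 and edlib 1.3.9.post1.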

Additional observations from a re-analysis of the deposited data

How the results depend on the processing

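No heat shock or ER member was called under any of the 17 alternatives, whose smallest limma adjusted p was 0.114 (Hsp90ab1, reference transcripts only). Medians stayed negative throughout, from -0.119 to -0.033 for heat shock members and from -0.17 to -0.046 for ER members. Over all genes tested, 5 were called higher and 19 lower. The lower count became 11 with a pseudocount of 0.1, 33 with no filter and 6 with a filter of 5 FPKM. The higher count became 3 with a pseudocount of 5 or a filter of 5 FPKM, 19 with reference transcripts only and 14 with the most abundant reference transcript. Leaving out 1 library gave 8 to 11 higher and 11 to 78 lower, the 78 without solvent replicate 3 and 57 without solvent replicate 5.

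At an unadjusted p under 0.05 (limma), heat shock members had 0 higher and 5 lower. They had 2 and 1 after quantile normalization and on the TPM scale, 2 and 3 with median-ratio scaling, 1 and 3 with reference transcripts only, and 1 and 2 with the most abundant reference transcript. Over all genes, quantile normalization gave 1163 higher and 945 lower of 10770, and the TPM scale 1170 and 1017 of 11797. Median-ratio scaling gave 1034 and 1060 of 10772. Reference transcripts only gave 548 and 822 of 10080, and the most abundant of them 531 and 697 of 9894. ER members had 1 higher and 3 lower, and 3 higher after quantile normalization. Leaving out CBR-5884 replicates 3, 4 and 5 in turn gave 0 heat shock members higher each time and 2, 5 and 2 lower. ER members then had 0, 1 and 0 higher and 2, 5 and 1 lower. Over all genes these fits gave 564 higher and 963 lower of 10731, 583 and 1132 of 10759, and 614 and 1130 of 10741. Without a solvent library that group has no spread of its own, so member counts are not given there.

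Single members turned sign as follows. After quantile normalization Hsp90aa1 was at 0.035, Dnaja1 0.019, Bag3 0.021, Cct4 0.0034 and Sel1l 0.021. With median-ratio scaling Hsp90aa1 was at 0.0093, Dnaja1 0.0093, Bag3 0.019 and P4hb 0.00094, and on the TPM scale they were at 0.022, 0.022, 0.032 and 0.013, with Sel1l at 0.012. With reference transcripts only, and with the most abundant of them, Hsf1 was at -0.36, Hspa4 0.099, Hsp90ab1 1.27 and Ahsa1 0.29; the second choice also gave Cct4 0.036, Cct8 0.024 and Sel1l 0.074. The mean summed heat shock level with CBR-5884 minus that with solvent was 122 FPKM over reference transcripts alone, and negative over all transcripts. In Hsp90ab1 the assembled transcripts of the solvent libraries account for it by construction, and for the scalings the cause was not tested. Leaving out 1 library gave -0.0030 to 0.14 for Hsf1, -0.16 to 0.050 for Hsph1, -0.099 to 0.056 for Hsp90aa1, -0.18 to 0.14 for Dnaja1, -0.39 to 0.088 for Hspb1, -0.074 to 0.046 for Bag3, -0.0051 to 0.15 for Dnajc3, -0.0050 to 0.094 for Canx, -0.19 to 0.036 for Pdia3, -0.083 to 0.0021 for P4hb, -0.0028 to 0.16 for Edem1, -0.068 to 0.0049 for Sel1l and -0.12 to 0.0045 for Sec61b.

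The labels do not say that replicate numbers mark a shared animal or day, and same-numbered libraries deviated together only weakly across genes (r = 0.070 for replicate 3 and 0.082 for replicate 5, and 0.117 and 0.134 over genes with a mean of at least 10 FPKM). With a replicate block 2 genes were called higher and 1 lower. ER members had 0 higher and 11 lower (45.8%) at an unadjusted p under 0.05 (limma), against 4.503% and 9.37% of all genes. Their smallest limma adjusted p was 0.331. Replicate 4 has no solvent library, so its block term takes up that library and the estimates rest on replicates 3 and 5 alone. The medians, -0.119 for heat shock and -0.17 for ER members, equal those without CBR-5884 replicate 4. Of the CBR-5884 libraries, that one lay nearest to the solvent mean for ER members, with a median of -0.026. Replicate 3 was below replicate 5 in both groups in 18 of 24 ER members (75%) and 8 of 25 heat shock members (32%), against 31.5% of all genes.

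With 3 and 2 libraries, differences as small as most of those seen here are near the spread between libraries. FPKM of Hspa1a, Hspa1b and Hspb1 rest on few fragments. Where Cufflinks assembled transcripts in some libraries and not in others, as for Hsp90ab1, Cct5, Hyou1 and Ern1, the gene sum rests on the regrouping.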
